A study of Homo sapiens with 8 samples.

Results

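Zinc finger genes of human chromosome 19 were examined in polysome and input RNA of a leukaemia cell line. The genes are the protein-coding genes of chromosome 19 whose symbol is ZNF followed by digits, taken where all 4 input libraries held at least 1 count. The deposited tables list 240 such genes among 58395 genes, and 185 of them met the rule. All 185 passed the filter on low counts and were among the 16503 genes tested. The rule used counts in input RNA for detection only, and no difference between fractions, title numbers or labels. It asked for no count in polysome RNA, and genes outside the family were not held to it. Just inside the rule stood ZNF233, ZNF221 and ZNF114, with 34, 35 and 36 counts over the 4 input libraries. Of the 55 genes outside it, 32 had no count in any library and 15 had a count in some polysome library. The gene outside it with the most counts was ZNF439, with 148 in all and 0 in input knockdown 2.

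RNA came from OCI-AML3, an established human acute myeloid leukaemia cell line, and was measured by polysome profiling followed by RNA-seq, which sets mRNA carried on several ribosomes beside the whole mRNA of the same lysate. The title of the study names FBL, which encodes fibrillarin, the nucleolar RNA methyltransferase of box C/D small nucleolar particles. All cells had been infected with a short hairpin, either against FBL (shFBL) or a control (shCT), and all were given cycloheximide at 100 µg/mL for 15 min, which stops elongating ribosomes. The groups are polysome knockdown, polysome control, input knockdown and input control, with 2 libraries each, and the title numbers 1 and 2 tell the libraries of a group apart. The genotype label is FBL knockdown for the knockdown libraries (U in the titles) and WT for the control libraries (CT in the titles). Input RNA and polysome RNA with the same title are taken from 1 lysate, of which 100 µL was kept as input and 290 µL was spun on a sucrose gradient and collected in 14 fractions. The labels do not state which fractions made up polysome RNA. Nor do they say that libraries of a group came from separate cultures, so a p-value here measures only how these libraries vary, part of which may be technical. In bulk RNA such as this, fewer cells with a transcript and less transcript per cell cannot be told apart.

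Proteins of this family bind DNA through tandem C2H2 fingers, short loops in which paired cysteines and paired histidines hold a zinc ion. Many also carry a KRAB domain, which binds TRIM28, and TRIM28 brings the histone methyltransferase SETDB1, heterochromatin proteins and the NuRD complex to DNA, where transposable elements and imprinted regions are kept silent. The genes arose largely by tandem duplication and lie in clusters along chromosome 19, so that neighbours are often close in sequence.

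The finger-coding sequences below are shown because the members with opposite values in polysome RNA differ in the letters that encode the same fold. Each is the first finger followed by the conserved linker in that gene, 84 bases or 28 codons from the first cysteine codon to the codon after the linker, printed 5′ to 3′ on the coding strand (GENCODE v29 transcripts, GRCh38). Capitals mark G or C at the third base of a codon. ZNF526 (chr19:42225823-42225906, plus strand) and ZNF787 (chr19:56088887-56088970, minus strand) were higher in polysome RNA. ZNF254 (chr19:24126802-24126885, plus strand), ZNF506 (chr19:19795197-19795280, minus strand) and ZNF543 (chr19:57328147-57328230, plus strand) were lower in it.
ZNF526: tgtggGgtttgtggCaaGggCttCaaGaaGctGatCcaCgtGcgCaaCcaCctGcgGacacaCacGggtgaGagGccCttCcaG
ZNF787: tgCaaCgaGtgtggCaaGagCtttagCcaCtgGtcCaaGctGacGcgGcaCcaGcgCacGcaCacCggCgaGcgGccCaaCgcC
ZNF254: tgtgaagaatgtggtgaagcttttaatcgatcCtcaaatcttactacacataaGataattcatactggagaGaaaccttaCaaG
ZNF506: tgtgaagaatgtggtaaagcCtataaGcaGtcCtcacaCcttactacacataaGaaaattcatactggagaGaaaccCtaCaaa
ZNF543: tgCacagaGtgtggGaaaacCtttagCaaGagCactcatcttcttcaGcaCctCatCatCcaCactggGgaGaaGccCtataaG
G or C stood at the third base in 23 of 28 codons in ZNF526 and 26 in ZNF787, against 5 in ZNF254, 9 in ZNF506 and 18 in ZNF543. The fingers of ZNF254 and ZNF506 shared 22 of 28 residues and 73 of 84 bases, the most of the 10 pairs, and the other 9 pairs shared 39 to 52 bases. Pairs of like direction shared 48, 50, 52 and 73 bases. Pairs of opposite direction shared 39, 43, 45, 45, 47 and 51 bases, the 51 being ZNF787 and ZNF543. Apart from ZNF254 and ZNF506, pairs of like and of opposite direction overlapped. The genes were picked by their values in these data, and a link between likeness and direction was not tested. Of the 6 members with the largest increases only these 2, ZNF526 and ZNF787, held a finger with that linker.

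Counts assigned to genes ran from 22.2 to 43.1 mega-counts per library, with polysome knockdown 2 the lowest and input knockdown 2 the highest. FBL, the targeted gene, stood at 499 and 165 CPM (counts scaled to library size) in polysome knockdown 1 and 2, against 498 and 163 CPM in polysome control 1 and 2. In input RNA it stood at 253 and 84.2 CPM in knockdown 1 and 2, against 250 and 88.1 CPM in control 1 and 2. FBL was thus no lower in the libraries labelled knockdown, and was lower in the libraries numbered 2 of both labels. Labels and numbers are therefore compared separately, a title number is not taken as a treatment, and no library was moved. All 10 myeloid markers looked up reached an average of 1 CPM in input RNA, against 0 of 7 markers of other blood lineages and 0 of 4 non-blood markers. Among genes with 4 to 100 counts, 73.3% to 76.9% of polysome counts and 60.03% to 65.90% of input counts were even numbers, where 50% would be even if reads were counted singly. The origin of the even numbers was not tested.

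The chromosome 19 ZNF mRNAs were low in level and were carried unevenly between the fractions. At the median member, CPM was 2.41 to 3.13 in the polysome libraries, against 4.86 to 5.47 in the input libraries. The sum over the 185 members ran the other way, at 2562 to 2923 CPM in polysome RNA against 2183 to 2293 CPM in input RNA. That gap rests on the TMM scaling. Scaled to library size alone, the sums overlapped, at 2389 to 2599 in polysome and 2388 to 2508 in input RNA. The 8 members with the highest CPM summed the other way from the rest, although ZNF146 among them was lower in polysome RNA. ZNF787, ZNF358, ZNF444, ZNF865, ZNF146, ZNF428, ZNF524 and ZNF414 held 56.0% to 59.2% of all member CPM in polysome RNA, against 39.3% to 41.8% in input RNA. The other 177 members summed to 1063 to 1204 CPM in polysome RNA, against 1289 to 1392 CPM in input RNA, with no overlap between the fractions.

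Per kilobase of merged exon, which allows levels of different genes to be compared, ZNF358 stood at 107 CPM per kb in polysome RNA and 83.1 in input RNA, the highest input level of the members. ZNF787 followed with 110 CPM per kb in polysome and 52.6 in input RNA, and ZNF524, whose product binds telomeric repeats, with 96.1 in polysome and 45.5 in input RNA. ZNF428 reached 97.9 CPM per kb in polysome and 39.0 in input RNA. ZNF865, ZNF444, ZNF414 and ZNF580 completed the 8 highest, at 30.0, 22.3, 20.9 and 19.3 CPM per kb in input RNA. The KRAB-type members described below lay far under these, with ZNF254 at 0.143 CPM per kb in polysome and 1.10 in input RNA.

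Polysome against input RNA asks which of these mRNAs were loaded with ribosomes more or less than the mean mRNA. Of the 185 members, 71 were called, 52 lower and 19 higher in polysome RNA, at an adjusted p under 0.05 (edgeR's quasi-likelihood test, Benjamini-Hochberg adjustment over all 16503 genes), which is 28.1% and 10.3% of them. Over all genes tested, 42.9% were called, 22.8% lower and 20.0% higher. The median log2 fold change was -0.66 for the members and -0.22 for all genes, and 75.1% of members and 58.4% of all genes had a negative value. Lysate by lysate, the members' median was -0.76 and -0.65 in knockdown 1 and 2 and -0.53 and -0.62 in control 1 and 2. Every polysome library lay below every input library for 61 members (32.97%, against 22.7% of all genes), and above every input library for 20 (10.8%, against 17.7%). These shares describe the members, and no test of the list against other genes was made. Counts in input RNA were required of members but not of all genes, so the shares are not on the same footing. With GC content and length fitted for each library, 14 members were lower (7.57%) and 26 higher (14.1%). The balance of calls thus turned, but so did that of all genes, at 7.71% lower and 26.1% higher, as given below.

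The other genes of the chromosome had the opposite balance of calls. Of 842 other protein-coding genes of chromosome 19, 417 were higher and 56 lower in polysome RNA, with a median log2 fold change of 0.49. Of 207 ZNF genes on other chromosomes, 40 were higher (19.3%) and 55 lower (26.6%), with a median of -0.33. That share of lower calls was near the 28.1% of members, while 10.3% of members were higher. With the correction for GC content and length the 207 genes held 40 higher and 19 lower calls and a median of 0.099, so their balance turned as well. The median GC content of merged exons was 43.7% for the members, 59.8% for the other chromosome 19 genes and 46.1% for the ZNF genes elsewhere.

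The largest increases were in GC-rich genes without a match to the KRAB A box. ZNF428, which matches a single finger, stood at 141, 162, 183 and 220 CPM in the 2 polysome knockdown and 2 polysome control libraries, against 73.8, 69.7, 68.7 and 68.7 CPM in the matching input libraries. All 4 polysome values lay above all 4 input values, with a log2 fold change of 1.31 (SE 0.09, edgeR adjusted p = 3.4e-06). ZNF526 stood at 57.5, 65.02, 57.2 and 57.7 CPM in polysome knockdown and control libraries, against 23.3, 28.8, 31.7 and 26.02 CPM in input knockdown and control libraries. Again the fractions did not overlap, and the log2 fold change was 1.11 (SE 0.12). ZNF446, a SCAN domain gene, averaged 12.3 ± 1.25 CPM in polysome RNA and 5.69 ± 0.870 CPM in input RNA (SD, n = 4 each), for a log2 fold change of 1.11. ZNF444, also a SCAN domain gene, averaged 342 ± 18.5 CPM in polysome RNA and 162 ± 6.30 CPM in input RNA (SD, n = 4 each), for a log2 fold change of 1.08. ZNF524 stood at 120, 117, 139 and 146 CPM in polysome RNA, against 60.8, 68.1, 55.9 and 62.5 CPM in input RNA, in the same order of libraries. ZNF787 stood at 345, 320, 472 and 479 CPM in polysome RNA, against 183, 179, 210 and 201 CPM in input RNA. It had the highest CPM of all members in both fractions, and its log2 fold change was 1.04 (SE 0.07).

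Exons of ZNF446 overlap another annotated gene over 58.5% of their length and those of ZNF428 over 27.6%, so reads there cannot be given to 1 gene with certainty. Of the other members high in level, ZNF865 averaged 201 ± 15.8 CPM in polysome RNA and 120 ± 7.56 CPM in input RNA (SD, n = 4 each), with a log2 fold change of 0.74. ZNF414 and ZNF358 were higher by 0.48 and 0.37 on the log2 scale, and exons of ZNF358 overlap another gene over 34.4% of their length. ZNF580 went the other way without being called, at -0.27 (edgeR adjusted p = 0.090), and ZNF146, a gene of fingers with no KRAB domain, was lower at 30.9 ± 6.95 CPM in polysome RNA and 72.6 ± 1.42 CPM in input RNA (SD, n = 4 each), for a log2 fold change of -1.24. ZNF146 was picked for its level after the values were seen.

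Among called members with at least 2 CPM in the higher fraction, the 6 largest decreases were in genes with a KRAB A box match and 8 to 18 fingers. ZNF254, the member with the lowest GC content, stood at 2.40, 0.482, 0.637 and 0.827 CPM in the 2 polysome knockdown and 2 polysome control libraries, against 9.49, 6.10, 11.01 and 6.96 CPM in the matching input libraries. The fractions did not overlap and the log2 fold change was -3.00 (SE 0.48, edgeR adjusted p = 5.8e-04). ZNF85, a transcriptional repressor, stood at 2.95, 0.868, 1.97 and 1.16 CPM in polysome RNA, against 8.66, 8.54, 8.91 and 6.17 CPM in input RNA, and its log2 fold change was -2.21 (SE 0.41). ZNF700 stood at 1.64, 0.868, 3.91 and 1.65 CPM in polysome RNA, against 9.73, 11.3, 11.6 and 14.0 CPM in input RNA, a log2 fold change of -2.62 (SE 0.34). In each of these 3 genes every polysome library lay below every input library.

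The other 3 large decreases rest on few reads, with 1 polysome library at 0 counts in each. ZNF506 had 18, 14, 0 and 14 counts in the polysome knockdown and control libraries, against 69, 102, 125 and 123 counts in the input knockdown and control libraries (log2 fold change -2.94, SE 0.87). ZNF675, an inhibitor of TRAF6 signalling, had 26, 16, 0 and 18 counts in polysome libraries, against 88, 149, 110 and 123 counts in input libraries (log2 fold change -2.77, SE 0.85). ZNF543 had 56, 0, 1 and 25 counts in polysome libraries, against 169, 130, 143 and 135 counts in input libraries (log2 fold change -2.79, SE 1.02, edgeR adjusted p = 0.0499). The edgeR call of ZNF543 was lost without any 1 of 5 libraries, and those of ZNF675 and ZNF506 without some of them, as listed with the alternatives.

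**Figure D1:**
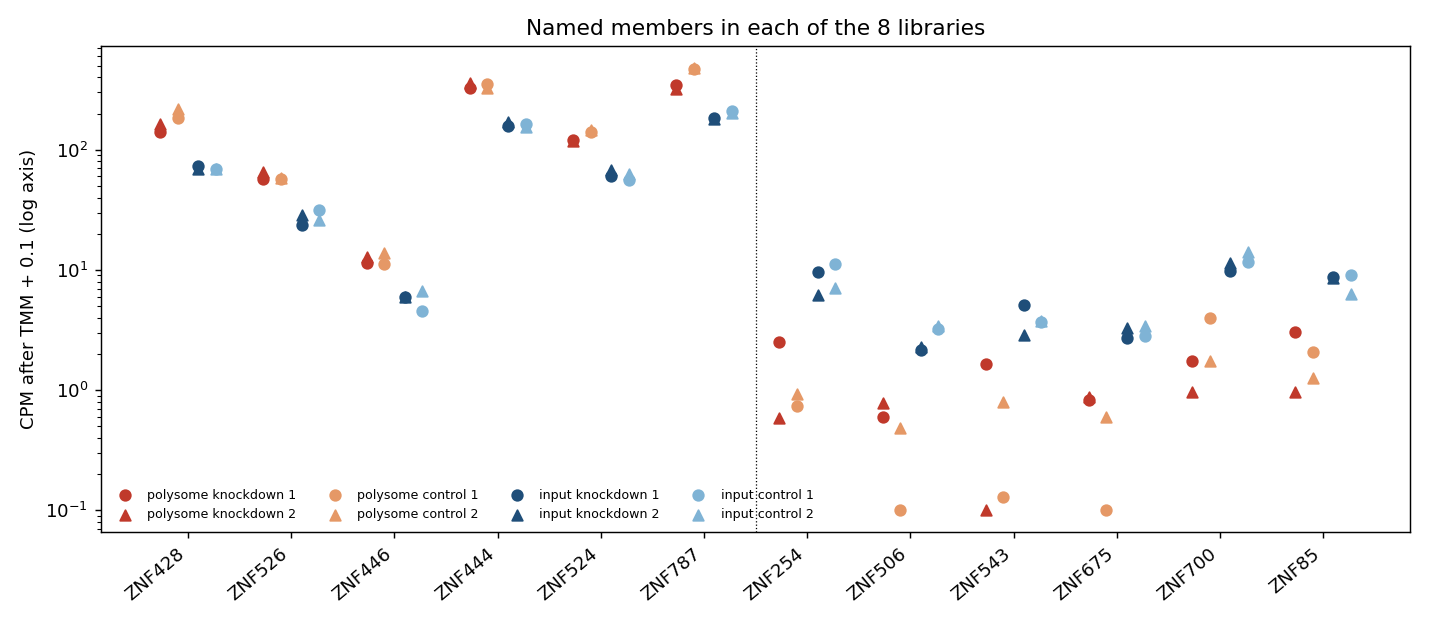
CPM after TMM scaling, plus 0.1, on a log axis for the 6 members with the largest increase (left of the dotted line) and the 6 with the largest decrease (right) in each of the 8 libraries, among called members with at least 2 CPM in the higher fraction. Polysome libraries stand left of input libraries, circles are number 1 and triangles number 2, and for the 6 genes on the left every polysome point lies above every input point.

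Another member called lower had no read in polysome RNA. ZNF709 had 0 counts in all 4 polysome libraries, against 4, 20, 17 and 6 counts in the input knockdown and control libraries. Its edgeR adjusted p was 0.038. With a floor of 3 counts set over the polysome group, the level was 12.7-fold lower, a log2 fold change of -3.67. That floor is not a firm bound, as low counts were mostly even and other members stood at 0 in single polysome libraries. The call was lost without any 1 of the 8 libraries. Its exons overlap another gene over 79.2% of their length. ZNF571, ZNF682 and ZNF442, picked here for their values, were also called lower under the level of 2 CPM. ZNF571 had 0, 0, 8 and 3 counts in the polysome knockdown and control libraries, against 52, 68, 29 and 62 in the input knockdown and control libraries. ZNF682 and ZNF442 had 2 and 6 counts in a single polysome library and 0 in the others, against 14 to 32 and 19 to 42 counts in the input libraries.

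Members were often at 0 counts in single polysome libraries. Of the 185 members, 36 were at 0 in at least 1 polysome library, although by the rule none was at 0 in input RNA, and 7 of the 52 lower calls were among them. Of 158 members averaging at least 50 input counts, 11 were at 0 in polysome knockdown 2, 2 in polysome knockdown 1, 5 in polysome control 1 and 2 in polysome control 2. ZNF274, which binds the 3′ ends of ZNF genes, had 114 and 0 counts in polysome knockdown 1 and 2 and 89 and 97 in polysome control 1 and 2, against 240 to 363 counts in input libraries. ZNF555 had 114 and 0 counts in polysome knockdown and 90 and 152 in polysome control libraries, against 177 to 318 counts in input libraries. Neither ZNF274 nor ZNF555, both picked here for their counts, was called (edgeR adjusted p = 0.078 and 0.19). Without polysome knockdown 1, and also without polysome knockdown 2, both were called lower. The part of depth in these zeros was not tested. Without polysome knockdown 2, the library lowest in depth, 67 members were called lower and 20 higher.

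GC content and length went with the members' values. Called-higher members had a median GC content of 63.1% and a median merged exon length of 3481 bases. Called-lower members had 40.9% and 6591 bases, and the 114 members not called had 44.0% and 4712 bases. No called-higher member had less than 52.2% GC and no called-lower member more than 49.8%, so the called groups did not overlap in GC content. Across the 185 members the Spearman correlation of GC content with the log2 fold change was 0.57, and it was 0.56 across 13085 protein-coding genes. For merged exon length it was -0.37 across members and -0.11 across 13091 protein-coding genes. Genes are not independent replicates and share the libraries, so these correlations are descriptions.

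Among the members, low GC content is a property of the coding sequence and of the whole transcript. G or C at the third codon base made up 39.6% of codons at the median member, against 60.4% at the median protein-coding gene. The longest exon held 69.2% of the merged exon length at the median member and 44.0% at the median protein-coding gene, and the finger array of such genes is typically coded by a single exon. The median member coded 12 fingers.

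Split into 3 equal groups by GC content, of the 62 members up to 42.1% GC, 34 were lower and 0 higher in polysome RNA, with a median log2 fold change of -1.26. Of the 61 members from there up to 45.3% GC, 13 were lower and 0 higher, with a median of -0.67. Of the 62 members above that, 5 were lower and 19 higher, with a median of 0.04. From the lowest to the highest GC range, 54.8%, 21.3% and 8.06% of members were lower, against 54.8%, 37.6% and 10.1% of other protein-coding genes. In the same order 0%, 0% and 30.6% of members were higher, against 1.89%, 5.98% and 36.8% of other protein-coding genes. In the lowest GC range members and other genes thus had the same share of lower calls to 3 digits, while the median was -1.26 for members and -0.78 for other genes. Of ZNF genes on other chromosomes 43.1%, 38.1% and 13.6% were lower in the 3 ranges and 0%, 0% and 36.4% higher. Their medians were -0.87, -0.90 and 0.21.

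By length, the longest 62 members, over 6295 bases, held 31 lower and 1 higher call with a median log2 fold change of -1.24. The shortest 62, up to 4147 bases, held 6 lower and 13 higher calls with a median of -0.13. In the long range 50.0% of members were lower and 1.61% higher, against 28.3% and 20.8% of other protein-coding genes, whose median was -0.21. ZNF431, the longest member at 14132 bases, averaged 5.92 ± 1.42 CPM in polysome RNA and 15.4 ± 2.01 CPM in input RNA (SD, n = 4 each), for a log2 fold change of -1.36. ZNF524, the shortest at 1360 bases, and ZNF865, the most GC-rich at 71.1%, were both among the increases given above.

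**Figure D2:**
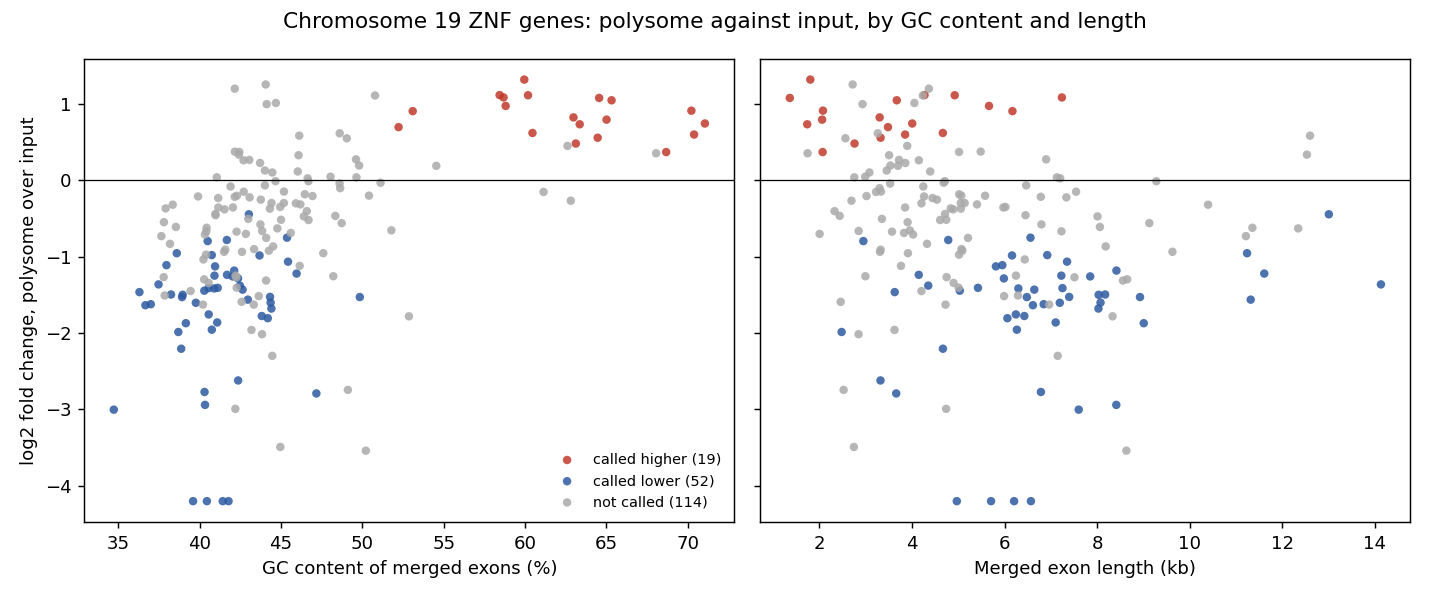
Log2 fold change of polysome over input RNA of the 185 members against GC content (left, %) and length of merged exons (right, kb), with members called higher in red, called lower in blue and not called in grey. Members below -4.2, 4 of them, are drawn at -4.2, and all called-higher members lie at 52.2% GC or above.

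**Figure D3:**
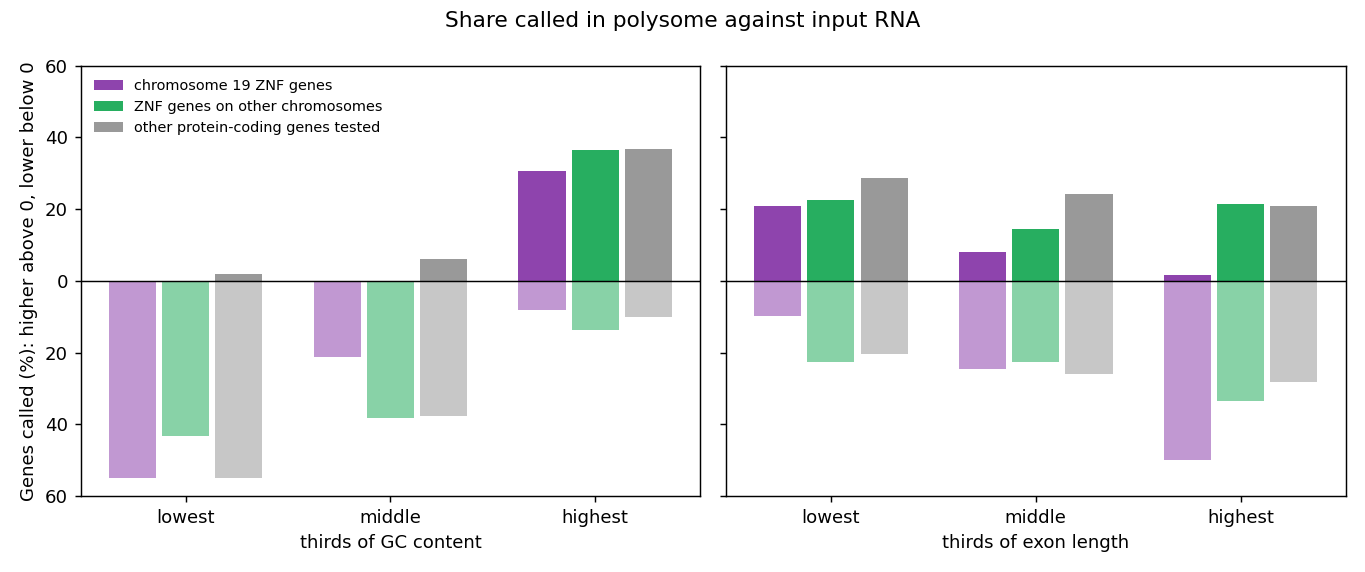
Share of genes called higher (above 0) and lower (below 0, paler) in polysome RNA, in %, in 3 ranges of GC content (left) and of merged exon length (right). Chromosome 19 ZNF genes are purple, ZNF genes on other chromosomes green and other protein-coding genes grey, and in the lowest GC range the purple and grey bars both reach 54.8% lower.

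Where GC content and length were fitted per library and taken out, the members' balance changed. The members' median became 0.072 and that of all genes 0.19, against -0.66 and -0.22 without the correction. With the lysate as a block beside the correction, the members' median was -0.11, on the other side of 0. In the fit without the block 14 members were lower and 26 higher, which is 7.57% and 14.1%, against 7.71% and 26.1% of all genes. Of the 52 lower calls 13 were kept and of the 19 higher calls 14 were kept, 12 other members became higher and 1 lower, and no member was called in the opposite direction, while 3 members called lower had a value above 0 and no call after the correction. The kept decreases included ZNF254 (log2 fold change -1.94), ZNF700 (-1.75) and ZNF85 (-1.21). ZNF331, chosen after its values were seen, kept -1.42 of its -1.53 at 49.8% GC. ZNF506, ZNF675 and ZNF543 lost their call under it at -2.16, -1.93 and -2.32, and ZNF431 at -0.48. Among the increases ZNF358 and ZNF414 lost theirs at 0.16 and 0.23, while ZNF580 became lower at -0.51. ZNF146, ZNF709, ZNF430, ZNF714 and ZNF100 among the decreases and ZNF628, ZNF579 and ZNF837 among the increases lost their call as well. ZNF428 (1.32), ZNF524 (1.04), ZNF526 (0.90), ZNF446 (0.81), ZNF444 (0.74) and ZNF787 (0.67) kept theirs. In the lowest GC range the corrected median was -0.40 for members and 0.16 for other protein-coding genes, and in the long range it was -0.51 for members and 0.18 for other protein-coding genes. Across members the corrected values still had a Spearman correlation of -0.35 with length and of 0.30 with GC content. What sets the dependence on GC content was not tested.

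Along the chromosome, members were grouped where neighbours start within 250 kb of each other, which gave 28 groups. The groups and members described were picked after their values were seen. Over all genes tested 20.0% were higher and 22.8% lower, with a median log2 fold change of -0.22. The group from ZNF628 to ZNF581 had 7 members, of which 6 were higher and none lower, a median log2 fold change of 0.73 and a median GC content of 64.6%. Its members ZNF628, ZNF579, ZNF784 and ZNF581 were higher by 0.60, 0.55, 0.79 and 0.73 on the log2 scale, beside ZNF524 and ZNF865. The call of ZNF784 was lost without any 1 of 4 libraries, as listed with the alternatives. ZNF580, in the same group at 62.8% GC, was its exception. ZNF574 and ZNF526, a group of their own, were both higher, by 0.62 and 1.11.

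Of the 13 groups with at least 5 members, 10 had a negative median log2 fold change, from -1.45 to -0.21, at a median GC content of 37.99% to 46.1%. The median of all genes was negative as well, at -0.22, and 22.8% of them were lower. From ZNF85 to ZNF43, 5 of 10 members were lower and none higher, with a median of -1.33 at 37.99% GC. Its lower members besides ZNF85, ZNF431 and ZNF100 were ZNF430 at -1.62 and ZNF714 at -1.50. From ZNF653 to ZNF791, 7 of 19 were lower and 1, ZNF653 at 63.0% GC, was higher, with a median of -1.41 at 43.2% GC. From ZNF565 to ZNF607, 8 of 18 were lower and none higher, with a median of -1.24. Weaker values at like GC content were found from ZNF317 to ZNF846, with 2 of 8 lower, none higher and a median of -0.27 at 43.5% GC, and from ZNF175 to ZNF816, with 4 of 22 lower, none higher and a median of -0.50 at 42.3% GC. The group from ZNF264 to ZNF417 is the largest, with 25 members, and had 4 lower calls, none higher and a median of -0.21 at 46.1% GC. That median is close to the median of all genes.

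From ZNF575 to ZNF180, 7 of 20 members were lower and 2, ZNF428 and ZNF576, were higher, with a median of -0.73 at 43.5% GC. Other groups held higher calls beside members that were not called. From ZNF787 to ZNF71, ZNF787 and ZNF444 (65.3% and 58.7% GC) and ZNF71 (53.1%) were higher. Between them ZNF582, ZNF583 and ZNF470, at 42.99%, 38.5% and 41.5% GC, had log2 fold changes of -0.51, -0.61 and -0.94 that were not called. From ZNF274 to ZNF446, ZNF837, ZNF324 and ZNF446 were higher and none of the 9 members was lower. The call of ZNF837 was lost without any 1 of 3 libraries.

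**Figure D4:**
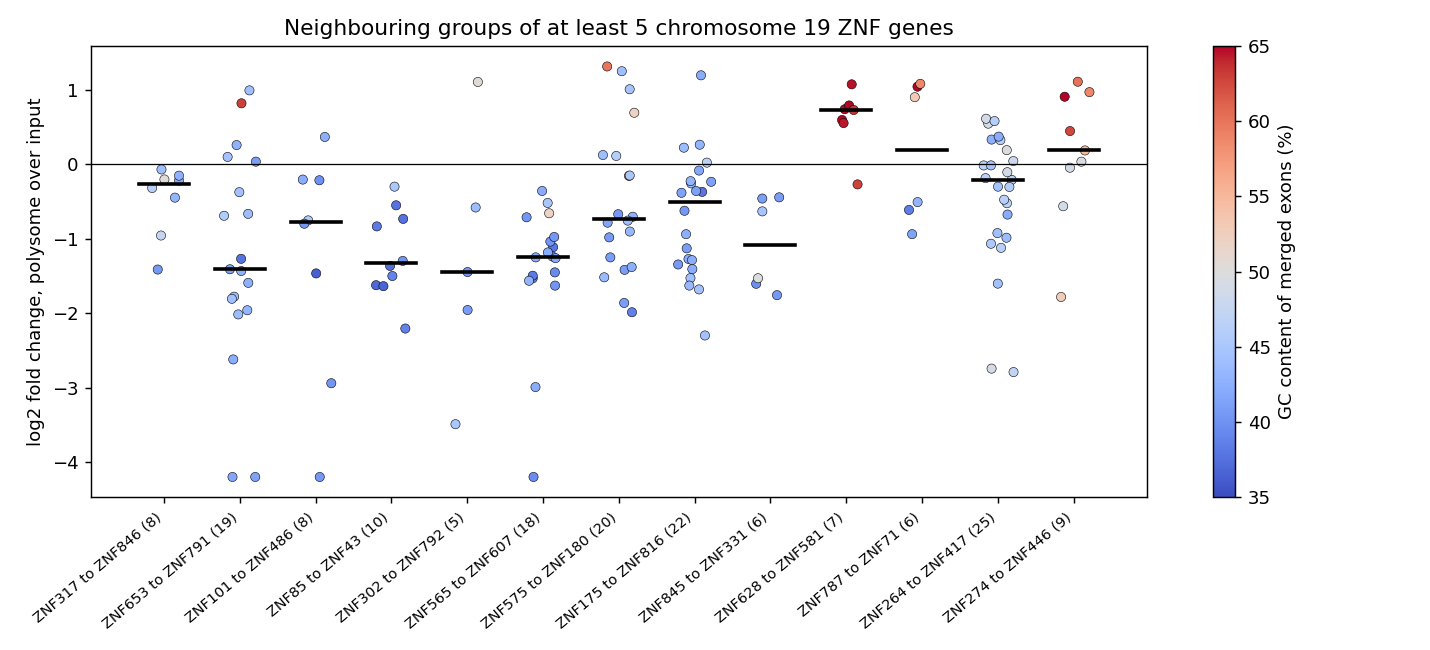
Log2 fold change of polysome over input RNA of each member (points, coloured by GC content in %) in the 13 groups of neighbours with at least 5 members, in order along the chromosome, with the number of members in brackets. Black bars are medians, which are highest in the GC-rich group from ZNF628 to ZNF581 at 0.73.

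By protein features, 128 members had a match to the KRAB A box in their coding sequence, of which 38 (29.7%) were lower and 2 (1.56%) higher, beside 22.8% and 20.0% of all genes. Their median log2 fold change was -0.74 and their median GC content 42.7%. The 57 without a match held 14 lower (24.6%) and 17 higher calls (29.8%), with a median of -0.16 and a median GC content of 45.2%. After the correction for GC content and length these medians were -0.09 and 0.16. Members with up to 9 fingers had 12 lower and 14 higher calls of 54, those with 10 to 14 fingers 28 and 2 of 76, and those with 15 or more 12 and 3 of 55. By strand the median was -0.67 for 110 members on the plus strand and -0.62 for 75 on the minus strand.

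Because the genes resemble each other, their reads may be given to the wrong gene or left out as not unique. For 98 members over 10% of the 31-base words of the transcript occurred in another gene. Of these 98, 32 were lower (32.7%) and 8 higher (8.16%), with a median of -0.69. The 87 other members had 20 lower (22.99%) and 11 higher calls (12.6%) with a median of -0.58. For 49 members exons overlapped another annotated gene over more than 10% of their length, with 10 lower (20.4%) and 7 higher calls (14.3%). Among the other 136 members 30.9% were lower and 8.82% higher. Of all genes tested 22.8% were lower and 20.0% higher.

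The partners through which KRAB domains act were listed as 21 genes, all tested, of which 9 were higher and 6 lower in polysome RNA, with a median log2 fold change of 0.083, where 20.0% of all genes were higher and 22.8% lower. With the correction for GC content and length 12 of the 21 were higher and 1, CBX3, was lower. Of all genes 26.1% were then higher and 7.71% lower. The corrected median was 0.32 for the 21 and 0.19 for all genes. TRIM28, the scaffold that KRAB domains bind, averaged 1692 ± 127 CPM in polysome RNA and 932 ± 43.5 CPM in input RNA (SD, n = 4 each), with 0.86 as its log2 fold change (SE 0.06, edgeR adjusted p = 4.2e-06). SETDB1, the histone methyltransferase it recruits, averaged 41.1 ± 2.43 CPM in polysome and 39.0 ± 4.00 CPM in input RNA and was not called (log2 fold change 0.081), but was called higher at 0.39 with the correction for GC content and length. The NuRD helicases CHD3 and CHD4 were higher by 0.86 and 0.74, the methyltransferase EHMT2 by 0.74 and the heterochromatin protein CBX5 by 0.51, which became 1.20 with the correction. Its relative CBX3 was lower, at 137 ± 6.97 CPM in polysome RNA and 276 ± 25.6 CPM in input RNA (SD, n = 4 each), for a log2 fold change of -1.01 that became -0.42 with the correction. The deacetylase HDAC2 was lower at -0.70, but its value was 0.24 after the correction for GC content and length and was then not called. Of the HUSH complex, which spreads the same histone mark and is named here after its values were seen, FAM208A and PPHLN1 were lower at -0.77 and -0.62 and MPHOSPH8 was not called at 0.17. Its partner MORC2 was higher at 0.48. With the correction FAM208A and PPHLN1 stood at 0.096 and 0.11, on the other side of 0 and not called, and MPHOSPH8 was called higher at 0.87. None of the 21 was called by title number or by label in the edgeR fits without a block, and the blocked fits are given with the alternatives.

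By title number, number 2 against number 1, no member was called in polysome RNA, where 0.0182% of all genes were, or in input RNA, where 0.0121% were. At an unadjusted p under 0.05, 20 members passed in polysome and 1 in input RNA by edgeR, against 9.05% and 1.94% of all genes. DESeq2 called 4 members in polysome and 0 in input RNA, against 1.53% and 0.211% of the genes it gave an adjusted p. Those genes were 15543 in polysome and 9464 in input RNA. Limma-voom called 0 members in both, against 0.0182% of all genes in both. The median log2 fold change of the members was -0.07 in polysome and -0.01 in input RNA. Of the 94 members averaging at least 200 input counts, 71 lay within 0.5 of 0 on the log2 scale in polysome RNA and 88 in input RNA. In polysome RNA these ran from -1.27 for ZNF85 to 1.09 for ZNF420, neither called. FBL, by contrast, had a log2 fold change of -1.60 in polysome and -1.54 in input RNA for the same contrast (edgeR adjusted p = 0.0026 and 0.0037).

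Whether the number changed polysome association was asked by the difference of the 2 contrasts, polysome less input. No member was called for it and 7 had an unadjusted p under 0.05 by edgeR, where 0% and 3.38% of all genes did. DESeq2 and limma-voom called 0 members as well, against 0.0606% of genes with an adjusted p and 0% of all genes. The smallest p belonged to members with zeros. ZNF564 had 0 and 0 counts in polysome knockdown 2 and control 2, against 45 and 14 in polysome knockdown 1 and control 1, and 100 and 67 counts in input knockdown 2 and control 2, against 30 and 32 in input knockdown 1 and control 1. Its exons overlap another gene over 69.9% of their length. ZNF823 had 15 and 27 counts in polysome knockdown 2 and control 2, against 0 and 0 in polysome knockdown 1 and control 1, and 44 and 32 counts in input knockdown 2 and control 2, against 51 and 44 in input knockdown 1 and control 1. The number 2 libraries were at 0 in polysome RNA for the first gene and the number 1 libraries for the other.

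By label, knockdown against control, 1 member was called in polysome RNA and none in input RNA, where 0.879% and 0% of all genes were called. At an unadjusted p under 0.05 by edgeR, 23 members passed in polysome and 2 in input RNA, against 18.1% and 4.51% of all genes, and DESeq2 called 5 in polysome and 0 in input RNA, against 7.58% and 1.75% of the genes it gave an adjusted p. The genes given an adjusted p by DESeq2 were 15863 in polysome and 4345 in input RNA, and members without one could not be called. By limma-voom 1 member was called in polysome and 0 in input RNA, against 1.80% and 0.0182% of all genes. ZNF787 was the called member and was lower in the libraries labelled knockdown. It had 345 and 320 CPM in polysome knockdown, against 472 and 479 CPM in polysome control libraries, a log2 fold change of -0.52 (SE 0.09, edgeR adjusted p = 0.040). In input RNA it had 183 and 179 CPM in knockdown, against 210 and 201 CPM in control libraries, which was not called (log2 fold change -0.18). The polysome call of ZNF787 was lost without 7 of the 8 libraries left out in turn, with an edgeR adjusted p of up to 0.13, and kept without polysome knockdown 1, at 0.015. It was also lost after the correction for GC content and length, where its value was -0.25.

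The smallest p by label in input RNA belonged to ZNF473, a factor of histone mRNA processing, and to ZNF559. ZNF473 had 24.3 and 23.8 CPM in input knockdown, against 33.4 and 30.0 CPM in input control libraries, and ZNF559 had 10.7 and 9.68 CPM, against 16.4 and 16.7 CPM. Neither was called, with adjusted p of 1 by edgeR for both. For the difference in polysome association by label, no member was called and 10 had an unadjusted p under 0.05 by edgeR, where 0% and 6.34% of all genes did. DESeq2 and limma-voom called 0 members here too, against 0.873% of genes with an adjusted p and 0% of all genes. ZNF100 had 2.76 and 5.55 CPM in polysome knockdown, against 1.53 and 1.16 CPM in polysome control libraries, and 6.82 and 5.14 CPM in input knockdown, against 10.6 and 7.40 CPM in input control libraries. That difference of 2.21 on the log2 scale (SE 0.65) had an edgeR adjusted p of 0.76. ZNF428 differed by -0.47 (edgeR adjusted p = 0.77), with 141 and 162 CPM in polysome knockdown, against 183 and 220 CPM in polysome control libraries.

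Over the 94 members with at least 200 input counts, label differences in polysome RNA lay within 0.5 of 0 for 64 and in input RNA for 89. The median SE of a single member was 0.34 in either fraction, so label differences of that size could not be told from the spread of the libraries. Input and polysome contrasts by label share no library. They are still not independent, as input and polysome RNA of a title are from 1 lysate and both contrasts come from 1 fit. The differences of contrasts use all 8 libraries.

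**Figure D5:**
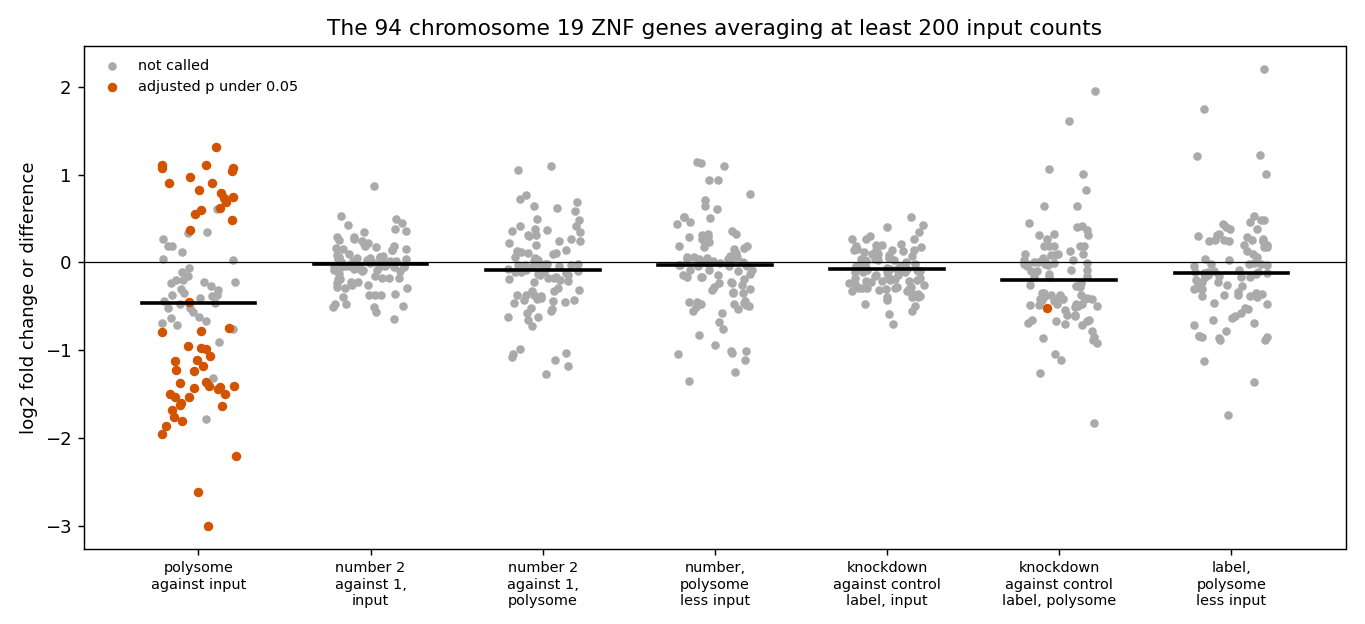
Log2 fold changes (or differences of them, polysome less input) of the 94 members averaging at least 200 input counts in the 7 comparisons, with members at an adjusted p under 0.05 in orange and black bars at the median. Polysome against input holds 54 called members, and all 6 number and label comparisons together hold 1.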

How the data were processed

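Deposited values are raw counts of reads per gene for 8 libraries, 4 groups of 2. According to the submitters' processing notes the authors used Trimmomatic 0.38, Bowtie2 and HTSeq 0.11.2 with GRCh38. The sources used here name no annotation, read layout or strand setting, so counts of overlapping and antisense genes may have lost or gained reads. Lines that name no gene, 13.2% to 15.0% of listed reads, stayed out. Among these lines, reads ambiguous between genes made up 5.72% to 6.79% of listed reads. Reads without a unique alignment made up 3.41% to 4.95%. GENCODE v29 gave gene types, positions, merged exon lengths, GC content and coding sequences for 58275 of 58395 identifiers.

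Counts were filtered with filterByExpr, scaled by TMM and tested in edgeR 4.0.16 (R 4.3.3) with the quasi-likelihood test and Benjamini-Hochberg adjustment over 16503 genes, calling at 0.05. Fraction and label, or fraction and title number, formed 4 groups over all 8 libraries, with 4 residual degrees of freedom. The protocol takes input and polysome RNA of a title from 1 lysate. Deviations from group means correlated at 0.312 for control and 0.355 for knockdown lysates, and the fit with the lysate as a block is given with the alternatives. The correction for GC content and length used splines with 5 degrees of freedom per library. DESeq2 1.42.0, limma 3.58.1 with voom, other scalings and filters, and each library left out were tried as well. The edgeR scripts were tested on simulated data.

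Genes were named by rule: the 8 members highest in input CPM per kb, the 6 largest increases and 6 largest decreases called in polysome RNA at 2 CPM or more in the higher fraction, extremes of GC content and length, called members or the 2 smallest p for the other comparisons, and partners by adjusted p. Others are marked where named. Members, lists and rules were chosen with earlier results of these data known. Fingers were counted as a cysteine, 2 to 4 residues, a cysteine, 12 residues, a histidine, 3 to 5 residues and a histidine. Intervals, SDs and SEs cover these libraries only.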

Additional observations from a re-analysis of the deposited data

Results flagged for a closer look

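ZNF526 in the 4 polysome libraries had a sample far from the others, with 65.02 CPM in polysome knockdown 2 against 57.2 to 57.7 CPM in the other polysome libraries. The gap held 0.937 of the group's range. ZNF85 in the 4 input libraries had input control 2 at 6.17 CPM, against 8.54 to 8.91 CPM in the other input libraries, a gap of 0.865 of the range. These were 2 of 44 groups looked at, and chance alone gives about 1 in 20.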

How the results depend on the processing

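Of 132 recomputed counts of called members 111 stayed within 1.5 times the reported count. This held in 17 of 20 settings for polysome against input and in 6 of 19 for the label in polysome RNA. In the other comparisons the reported count was 0, so there it means only that 0 stayed 0. For polysome against input, 52 to 87 members were called with each library left out in turn, with medians of -0.73 to -0.60, and lower calls outnumbered higher ones each time. Beside 71 calls, edgeR gave 40 with the correction for GC content and length, 41 with that correction and the lysate as a block, and 42 with GC content alone (added after seeing the data). Lower against higher calls were 52 and 19 as reported, 14 and 26 with the correction, 14 and 28 with GC content alone and 35 and 26 with length alone, also added later. The median of -0.66 was -0.82 with the lysate as a block, -0.85 with limma-voom, 0.072 with the correction, -0.11 with correction and block, 0.075 with GC content alone and -0.32 with length alone. The lysate block gave 67 calls, 48 lower (25.9%) and 19 higher (10.3%), against 22.4% and 20.6% of all genes. HDAC2, at -0.70, changed sign to 0.24 with the correction, 0.23 with correction and block and 0.45 with GC content alone. Under these 3 corrections FAM208A, at -0.77, gave 0.096, 0.098 and 0.26, and PPHLN1, at -0.62, gave 0.11, 0.099 and 0.29. ZNF543 lost its call without polysome control 1, input control 1, input control 2, input knockdown 1 and input knockdown 2, ZNF506 without input control 2, and ZNF675 without input control 2 and without input knockdown 2. ZNF709 lost it without any 1 of the 8 libraries, ZNF784 without polysome control 2, input control 1, input control 2 and input knockdown 1, and ZNF837 without polysome control 2, input control 1 and input knockdown 1. Calls of lower polysome RNA were gained by ZNF274 and ZNF555 without polysome knockdown 1, without polysome knockdown 2, with no filter on low counts and with limma-voom, by ZNF470 without polysome knockdown 1 and by ZNF582 without polysome knockdown 2.

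For number 2 against 1 in polysome RNA, 0 calls became 2 with no filter on low counts, 4 with DESeq2, and 0 to 6 with a library left out, the 6 without polysome control 2. The number difference in polysome association gave 0 to 2 and the label difference 0 to 3, the highest without polysome control 2 and without polysome knockdown 1. The single label call in polysome RNA became 0 with upper quartile scaling, 4 with no filter, 5 with DESeq2 and 0 with the correction. It became 0 with the 4 polysome libraries alone and 3 with the title number as a replicate block. With that block 1.62% of members and 4.31% of all genes were lower, and 0% and 2.07% were higher. CHD4 and CHD3 of the partner genes were also called lower by label in that fit, at -0.45 and -0.31. With a library left out 0 to 14 members were called, the 14 without polysome knockdown 1. DESeq2 called 7.58% of the genes it gave an adjusted p. Shares of all genes are not given for the other settings, so those counts are not read as results about the members. Libraries of different labels share only a number: deviations of the same number correlated at 0.183 in polysome and 0.473 in input RNA. The causes of these moves were not tested beyond the smaller number of libraries in each such fit. The 2 libraries per group and the low counts of most members limit what could be seen, with a median SE of 0.34 for label contrasts even at 200 or more input counts.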
